A study of Homo sapiens with 12 samples.

Results

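Receptor tyrosine kinases are membrane proteins, most of which bind a ligand such as a growth factor outside the cell and phosphorylate tyrosines inside it. The 10 receptors described here are EGFR, ERBB2, ERBB3, MET, AXL, EPHA2, DDR1, IGF1R, INSR and FGFR1, chosen by their gene symbols and matched by Ensembl identifier to 10 of the 20595 genes in the table. RNA was sequenced from A549 and H1792, human lung adenocarcinoma cell lines, after 48 h in either DMSO, the solvent, or RG7112 at 1 μM, with 3 replicates in each of 4 groups. RG7112 is a small-molecule MDM2 inhibitor, a nutlin, which keeps MDM2 from binding p53. Serum was in the medium of both lines, which the labels give as RPMI-1640 for both and the paper's methods as DMEM for A549, so that a difference in medium cannot be told apart from the difference between the lines. The study describes both lines as MDM2-amplified, and most of its text gives p53 as WT in A549 and mutant in H1792, as taken here. Each genotype is 1 cell line, so p53 status and cell line cannot be told apart, and the labels do not say whether replicates were separate cultures, so that p-values measure the spread between these samples only. The columns of the table carry 0.1 μM in their names, and the dose of the labels is given here.

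Ligand binding brings many of these receptors together in pairs, and the phosphorylated tail then recruits adaptors such as GRB2, which pass the signal to RAS and the MAPK and PI3K pathways. Signaling induces its own inhibitors, among them dual-specificity phosphatases and receptor-binding proteins, and membrane proteases release both ligands and receptor ectodomains. EGFR, ERBB2 and MET are established drivers and drug targets in lung adenocarcinoma. AXL is known from mesenchymal tumor cells and from resistance to EGFR inhibitors. IGF1R and INSR bind insulin-like growth factors and insulin, FGFR1 binds fibroblast growth factors, EPHA2 binds ephrins on neighboring cells and DDR1 binds collagen.

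The promoters of MET, EGFR, EPHA2 and AXL are shown because these were the 4 receptors with higher CPM in every RG7112 library than in every DMSO library of H1792. Over all genes tested in H1792, 53.3% did not overlap between the treatments, in either direction. Of the 4, MET and AXL had an adjusted p under 0.05 (edgeR), EGFR did not, and EPHA2 did not pass the filter on low counts. Each sequence is the 250 bases before the RefSeq start in GRCh38.p14, written 5′ to 3′ on the strand of the gene, with the letters GGGCGG or their reverse complement CCGCCC, the core of a GC box, in capitals. MET lies at chr7:116671946-116672195 on the + strand, EGFR at chr7:55018767-55019016 on the + strand, EPHA2 at chr1:16156070-16156319 on the - strand and AXL at chr19:41218973-41219222 on the + strand.
MET: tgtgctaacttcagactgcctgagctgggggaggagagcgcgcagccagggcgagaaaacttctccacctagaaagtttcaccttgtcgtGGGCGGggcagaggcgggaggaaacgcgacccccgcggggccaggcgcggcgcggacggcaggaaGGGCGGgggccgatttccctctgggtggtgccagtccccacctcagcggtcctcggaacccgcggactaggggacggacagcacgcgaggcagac
EGFR: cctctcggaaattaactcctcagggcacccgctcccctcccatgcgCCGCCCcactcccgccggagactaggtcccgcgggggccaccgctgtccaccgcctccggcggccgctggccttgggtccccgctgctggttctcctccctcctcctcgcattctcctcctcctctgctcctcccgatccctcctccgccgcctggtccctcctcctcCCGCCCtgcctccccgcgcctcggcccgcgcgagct
EPHA2: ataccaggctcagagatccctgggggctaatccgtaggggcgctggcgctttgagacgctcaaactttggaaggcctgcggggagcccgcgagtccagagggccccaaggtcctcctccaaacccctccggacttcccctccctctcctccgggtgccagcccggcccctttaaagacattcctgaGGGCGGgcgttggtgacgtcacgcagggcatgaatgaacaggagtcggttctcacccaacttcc
AXL: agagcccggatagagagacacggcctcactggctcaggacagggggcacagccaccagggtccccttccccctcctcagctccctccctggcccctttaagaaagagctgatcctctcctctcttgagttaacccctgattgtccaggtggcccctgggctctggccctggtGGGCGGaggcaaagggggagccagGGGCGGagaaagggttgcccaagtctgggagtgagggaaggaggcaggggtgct
GGGCGG on either strand occurred 2 times in MET, EGFR and AXL and 1 time in EPHA2. Of all 35116 RefSeq promoters of this length, 42.6% held it. Among the other receptors for which a promoter entry was used, it occurred 2 times in IGF1R, 4 times in INSR and 0 times in ERBB2 and DDR1. No entry was used for ERBB3 and FGFR1, so that their promoters are not described. DDR1 had 8 entries, and the window taken lies 4549 bases from the gene start, so its letters may not stand for its other starts. CpG dinucleotides numbered 24 in MET, 25 in EGFR, 15 in EPHA2 and 4 in AXL. On either strand, TGANTCA, the AP-1 letters found in 6.57% of promoters, CACGTG, the E-box found in 6.34%, and TATAAA, found in 10.7%, were in none of these 4 windows. The letters of a p53 half-site, found in 5.57% of promoters, were also in none of them. A match is a description of the letters and not a measured binding site.

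Totals were 2011916 to 6218825 counts per sample, and 3 counts stood for 0.463 to 1.43 CPM, the TMM-normalized count scaled to the library size. Within A549, the third replicate of each treatment stood apart from the first and second: the chi-square of the counts per degree of freedom was 17.2 to 25.6 against it and 5.38 to 5.93 between the other two. In H1792 the replicates differed by 5.99 to 10.5 on the same measure. Mitochondrial transcripts took 5.48 to 6.95% of counts in A549 with RG7112, 2.12 to 2.85% in A549 with DMSO and 0.766 to 1.29% in H1792. Summed over 7 epithelial markers, CPM was 14446 to 18922 with DMSO and 17066 to 24009 with RG7112 in A549, and 1818 to 2185 with DMSO and 1070 to 1338 with RG7112 in H1792. Summed over 5 fibroblast markers it was 1111 to 1423 in H1792 and 1.90 to 8.85 in A549. The 4 alveolar markers summed to at most 6.23 CPM and the 3 endothelial markers to at most 1.90 CPM in any library, and the 4 leukocyte markers to 13.3 to 23.7 CPM in A549 and at most 1.15 CPM in H1792. Their part in the results below was not tested.

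As a check of the treatment, MDM2 and CDKN1A, both p53 targets, rose in A549 by 2.99 (SE 0.45, edgeR quasi-likelihood test with Benjamini-Hochberg adjustment, adjusted p = 0.0102) and 3.58 (SE 0.71, adjusted p = 0.0252) on the log2 scale. In H1792 their log2 fold changes were -0.05 (adjusted p = 0.928) and 0.15 (adjusted p = 0.882). In A549, CDKN1A was at 44.9, 42.4 and 24.1 CPM with DMSO and at 202, 189 and 939 CPM with RG7112. The third RG7112 sample thus raised its fold change. Of the p53 target list, 9 of 20 tested genes rose in A549 and none fell, with BBC3 and FDXR among them, against 4.35% and 4.03% of all genes. In H1792, 2 of 17 rose and 3 fell, shares below or near those of all genes, 17.7% and 16.5%.

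Levels of different receptors were compared per length, as CPM per kilobase of the transcript with the longest coding sequence. AXL had the highest level and FGFR1 the next in all 4 groups. With DMSO, AXL stood at 66.0 ± 16.6 CPM per kilobase in A549 and 58.5 ± 4.91 in H1792 (SD, n = 3), which was 45.9% and 49.97% of the sum over the 10 receptors. FGFR1 followed at 26.4 ± 3.01 in A549 and 31.0 ± 2.44 in H1792. In both lines the ranges of AXL and FGFR1 did not overlap.

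In A549 with DMSO, IGF1R (19.4 ± 1.74 CPM per kilobase) and ERBB2 (17.6 ± 2.89) came next and overlapped in range. DDR1, INSR, MET, EPHA2, ERBB3 and EGFR followed at means of 6.19 down to 0.938, each overlapping in range with its neighbor. In H1792 with DMSO, ERBB2 (16.6 ± 2.46) came next, then INSR (7.08 ± 0.78) and then IGF1R (3.16 ± 0.64), with no overlap between these neighbors. EGFR, ERBB3, DDR1, MET and EPHA2 were the lowest 5, at means between 0 and 0.383. With RG7112 in H1792, ERBB2, INSR, MET, IGF1R and EGFR had means of 7.18, 5.44, 4.30, 2.50 and 2.09 CPM per kilobase. Each overlapped in range with its neighbor, and MET moved from place 9 to place 5. The first RG7112 sample widened these ranges: it was the lowest for ERBB2, MET, IGF1R and EGFR and the highest for INSR. For IGF1R it was at 0.316 against 4.02 and 3.15 CPM per kilobase in the others. In A549 with RG7112, ERBB2 (18.1 ± 4.47) and IGF1R (14.2 ± 5.57) were again next to FGFR1 and overlapped. Summed over the 10 receptors, the level was 117 ± 9.76 with DMSO and 157 ± 14.8 with RG7112 in H1792, where the samples did not overlap, and 144 ± 21.2 and 133 ± 8.39 in A549, where they did (SD, n = 3). No test was run on these sums. In H1792, AXL alone went from 58.5 to 101 CPM per kilobase, a rise at least as large as that of the sum, so that the sum does not show a general rise of the receptors. In bulk RNA, fewer cells with a receptor and less RNA per cell cannot be told apart. The order depends on the transcript taken as the length: with merged exons of the whole gene, IGF1R ranked above FGFR1 in A549.

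**Figure D1:**
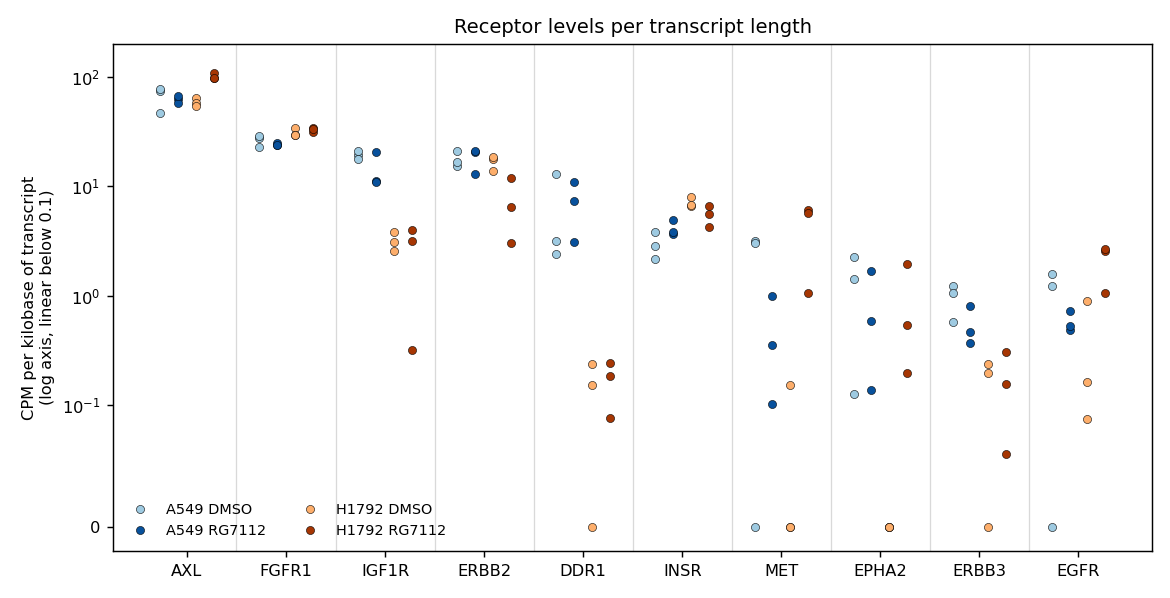
Level of each receptor in the 12 samples, as CPM per kilobase of transcript on a log axis that is linear below 0.1, with receptors ordered by their mean in A549 with DMSO. Points are single samples, colored by group. AXL lies above the other receptors in all 4 groups, and MET, EPHA2, DDR1, ERBB3 and EGFR have samples at 0.

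The baseline comparison asked how the lines differed before the drug. With DMSO, A549 held more IGF1R, DDR1 and ERBB3 mRNA, and H1792 held more INSR. These 4 of 8 tested receptors were called at an adjusted p under 0.05, as were 49.7% of all 10330 genes tested (26.5% higher in A549 and 23.2% higher in H1792), a share near that of the receptors. MET and EPHA2 did not pass the filter on low counts here.

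IGF1R was at 237, 216 and 259 CPM in A549 and at 31.3, 47.0 and 37.9 CPM in H1792. Every A549 sample was above every H1792 sample, and the log2 difference was 2.65 (SE 0.16, edgeR, adjusted p = 4.76e-05). INSR, the receptor of the same family, went the other way, with 10.3, 13.4 and 18.1 CPM in A549 and 37.6, 30.9 and 31.8 CPM in H1792. The groups did not overlap, and the log2 difference was -1.21 (SE 0.25, edgeR, adjusted p = 0.00676).

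DDR1, a collagen receptor, had 120, 54 and 28 counts in A549 and 0, 3 and 1 counts in H1792. From 202 summed counts against 4, the ratio was 36.5 per library size, with an exact 95% counting interval of 14.0 to 135, and the edgeR adjusted p was 0.00535. DDR1 lies in the MHC region of chromosome 6, and 2511 identifiers of the table belong to alternate sequences outside the primary assembly. Reads of a gene there can be divided among copies, so that the level of DDR1 is uncertain. ERBB3, which lacks strong kinase activity of its own and signals through partners such as ERBB2, had 11, 43 and 25 counts in A549 and 4, 5 and 0 in H1792. The log2 difference was 2.65 (SE 0.70, edgeR, adjusted p = 0.0187), with no overlap in CPM. ERBB3 shares its locus with AC034102.2 on the same strand, and its call was lost without A549 DMSO replicate 2 (adjusted p = 0.0759) or H1792 DMSO replicate 2 (adjusted p = 0.0615).

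EGFR, ERBB2, AXL and FGFR1 were not called between the lines. EGFR had 39, 91 and 0 counts in A549 and 25, 7 and 2 in H1792, so that the ranges overlapped, and the log2 difference was 1.36 (SE 1.34, edgeR, adjusted p = 0.431). For ERBB2, AXL and FGFR1 the log2 differences were 0.13 (SE 0.16), 0.23 (SE 0.20) and -0.18 (SE 0.13), with edgeR adjusted p of 0.553, 0.391 and 0.294. The CPM of FGFR1 did not overlap between the lines, which was also so for 61.1% of all genes tested.

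The third A549 DMSO sample decides part of this comparison. It had 0 counts for MET and EGFR and 2 for EPHA2, against 47 and 82 for MET, 39 and 91 for EGFR and 18 and 53 for EPHA2 in the first and second, and it was the lowest of its group for 6 of the 10 receptors. EPHA2 had no count in any H1792 DMSO sample, and A549 was at least 4.96-fold higher over the group. Without the third A549 DMSO sample, 7 receptors were called, with MET (edgeR, adjusted p = 0.00295), EPHA2 (adjusted p = 0.00582) and AXL (adjusted p = 0.0113) added, all higher in A549.

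In A549, 0 of the 10 receptors was called with RG7112, and the samples of both treatments overlapped for each of them. Over all 10739 genes tested, 8.38% were called (4.35% upward and 4.03% downward) and 32.4% did not overlap. At an unadjusted p under 0.05 none of the receptors passed either, and with DESeq2 none had an adjusted p under 0.05. The median log2 fold change was -0.29 over the receptors and -0.01 over all genes.

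AXL had its DMSO and RG7112 samples in the same range in A549, with 351, 364 and 222 CPM with DMSO and 296, 275 and 315 CPM with RG7112. The log2 fold change was -0.08 (SE 0.20, edgeR, adjusted p = 0.853). FGFR1 (-0.13, SE 0.14) and ERBB2 (0.05, SE 0.23) also had small standard errors, with edgeR adjusted p of 0.640 and 0.922.

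MET had 47, 82 and 0 counts in A549 with DMSO and 30, 1 and 6 with RG7112. It was lower on average with the drug, but the sample without a count was a DMSO sample, and the log2 fold change of -1.93 had a SE of 1.28 (edgeR, adjusted p = 0.421). EGFR had 39, 91 and 0 counts with DMSO and 31, 11 and 26 with RG7112, and EPHA2 18, 53 and 2 with DMSO and 15, 14 and 2 with RG7112. The log2 fold changes were -0.70 (SE 1.09, edgeR, adjusted p = 0.752) and -0.79 (SE 1.06, adjusted p = 0.710). For EGFR the value turned on the DMSO sample without a count: without it the log2 fold change was -1.28 (SE 0.34, edgeR, adjusted p = 0.0955), and with the third sample of both treatments left out -1.47 (SE 0.32, adjusted p = 0.0537). For EPHA2 the same alternatives gave -1.32 (SE 0.87) and -0.83 (SE 0.64).

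IGF1R was at 237, 216 and 259 CPM with DMSO and at 136, 134 and 253 CPM with RG7112 in A549. RG7112 replicates 1 and 2 were below every DMSO sample and replicate 3 was not. The log2 fold change was -0.44 (SE 0.26, edgeR, adjusted p = 0.364) with all samples and -0.74 (adjusted p = 0.0110) with the third sample of both treatments left out, which makes IGF1R the 1 receptor called in A549. Leaving out the third RG7112 sample alone gave -0.81 (adjusted p = 0.0218). The log2 fold changes of INSR, ERBB3 and DDR1 in A549 were 0.49 (SE 0.29), -0.86 (SE 0.48) and 0.20 (SE 0.72), none of them called.

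**Figure D2:**
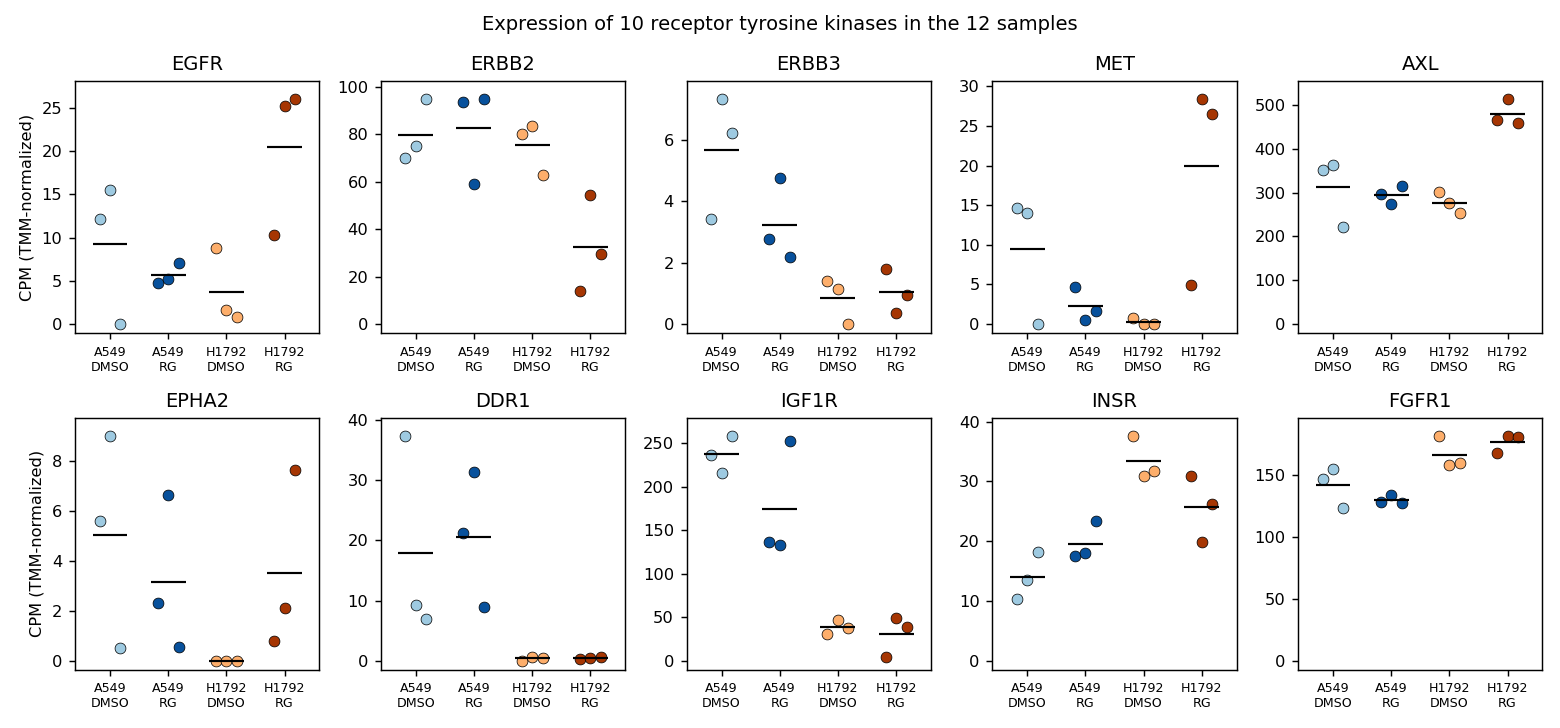
CPM of each receptor in the 12 samples, 1 panel per receptor with its own linear axis. Points are single samples in the order of their replicate numbers, RG stands for RG7112, and the black line is the mean of 3 samples. In H1792, every RG7112 point of MET, EGFR, AXL and EPHA2 lies above every DMSO point, and every RG7112 point of ERBB2 lies below.

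In H1792, RG7112 was accompanied by more MET and AXL mRNA. These 2 of 7 tested receptors were called, both upward. Over all 9914 genes tested, 34.1% were called, with 17.7% upward and 16.5% downward, so the count for the receptors is not above that of other genes. The CPM did not overlap for 4 of the 7 receptors, and for 53.3% of all genes tested. ERBB3, EPHA2 and DDR1 did not pass the filter on low counts. The median log2 fold change was 0.16 over the 7 receptors and 0.01 over all genes. Of 6 tested epithelial markers, 4 fell in H1792 and 0 rose, with a median log2 fold change of -0.57, and their summed CPM did not overlap between treatments. Their part in the receptor results was not tested.

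MET, the receptor for hepatocyte growth factor, had 2, 0 and 0 counts with DMSO and 19, 160 and 114 with RG7112 in H1792. The RG7112 samples were at 4.90, 28.4 and 26.5 CPM, and the first of them was well below the others but above every DMSO sample. From 293 summed counts against 2, the ratio was 101 per library size, with an exact 95% counting interval of 27.6 to 834 that leaves out the spread between samples, and the edgeR adjusted p was 0.00852. The call held when any single sample was dropped (adjusted p from 0.00383 to 0.0361).

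AXL, the receptor for GAS6, was at 301, 276 and 255 CPM with DMSO and at 467, 514 and 459 CPM with RG7112. Its groups were far apart compared with their spread, and the log2 fold change was 0.87 (SE 0.09, edgeR, adjusted p = 0.00282). Per kilobase, AXL rose from 58.5 ± 4.91 to 101 ± 6.31 (SD, n = 3), and its share of the sum over the 10 receptors went from 49.97% to 64.5%. Its call held in all alternatives and with each sample left out, with log2 fold changes from 0.79 to 1.13.

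EGFR had 25, 7 and 2 counts with DMSO and 40, 142 and 112 with RG7112. In CPM these were 8.79, 1.61 and 0.870 against 10.3, 25.2 and 26.0, so that the highest DMSO sample and the lowest RG7112 sample were close together. The log2 fold change was 2.52 (SE 0.80, edgeR, adjusted p = 0.0504), which just missed the threshold. EGFR was called in 4 of 10 alternatives, with adjusted p over all of them from 0.00982 with DESeq2 to 0.147, and in 2 of 6 fits with 1 sample left out. Of these, the fit without DMSO replicate 1 gave 4.02 (edgeR, adjusted p = 0.0117), and the fit without DMSO replicate 2 gave 2.08 (adjusted p = 0.134).

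EPHA2 had no count in any DMSO sample of H1792 and 3, 12 and 33 counts with RG7112. Against 3 counts per library, averaged over the group, it was at least 3.46-fold higher with the drug. With no filter on low counts it could be tested, and its edgeR adjusted p was 0.0421, though the lowest RG7112 sample is itself at the 3-count limit. With all 12 samples in 1 fit it was also tested and was not called (edgeR, adjusted p = 0.0520).

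ERBB2, a receptor without a known ligand that pairs with the other ERBB members, was the 1 receptor whose RG7112 samples were all below the DMSO samples. It was at 80.2, 83.4 and 62.7 CPM with DMSO and at 13.9, 54.5 and 29.5 CPM with RG7112. The RG7112 samples were widely spread, and the log2 fold change was -1.12 (SE 0.44, edgeR, adjusted p = 0.0957). ERBB2 was called in 2 of 10 alternatives, with adjusted p over all of them from 0.0375 with DESeq2 to 0.350 with the GC correction, and in 1 of 6 fits with 1 sample left out. That fit, without RG7112 replicate 2, gave -1.71 (edgeR, adjusted p = 0.0309), and the fit without RG7112 replicate 1 gave -0.76 (adjusted p = 0.0925). PGAP3 and MIEN1 overlap ERBB2 on the opposite strand, and whether strand was used in the counting is not given in the sources used here.

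IGF1R, INSR and FGFR1 were not called in H1792. IGF1R was at 31.3, 47.0 and 37.9 CPM with DMSO and at 3.87, 49.2 and 38.5 CPM with RG7112, so that 1 sample carried the difference. The log2 fold change was -0.25 (SE 0.73, edgeR, adjusted p = 0.814) and 0.26 without that sample. INSR (-0.31, SE 0.21) and FGFR1 (0.16, SE 0.09) had edgeR adjusted p of 0.289 and 0.216. LETM2 overlaps FGFR1 on the opposite strand. ERBB3 had 4, 5 and 0 counts with DMSO and 7, 2 and 4 with RG7112. DDR1 had 0, 3 and 1 counts with DMSO and 1, 3 and 3 with RG7112. At these counts a fall or a small rise of either receptor was not detectable. The first H1792 RG7112 sample was the lowest of its group for 7 of the 10 receptors, among them MET, EGFR, ERBB2 and IGF1R.

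Across genes, the log2 fold changes in H1792 went with GC content (Spearman rho -0.49 over 9165 genes, which are not independent replicates). Of the receptors that were higher in every RG7112 sample, MET at 44.5% GC and EGFR at 47.5% were the lowest of the 10, AXL was at 53.9% and EPHA2 at 60.3%. ERBB2, which was lower, was also at 60.3%. After a correction for GC content, MET (6.09, edgeR, adjusted p = 0.0117) and AXL (1.05, adjusted p = 0.00310) were still called, FGFR1 was added (0.34, adjusted p = 0.0495), and EGFR and ERBB2 were at 2.35 (adjusted p = 0.0682) and -0.65 (adjusted p = 0.350).

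**Figure D3:**
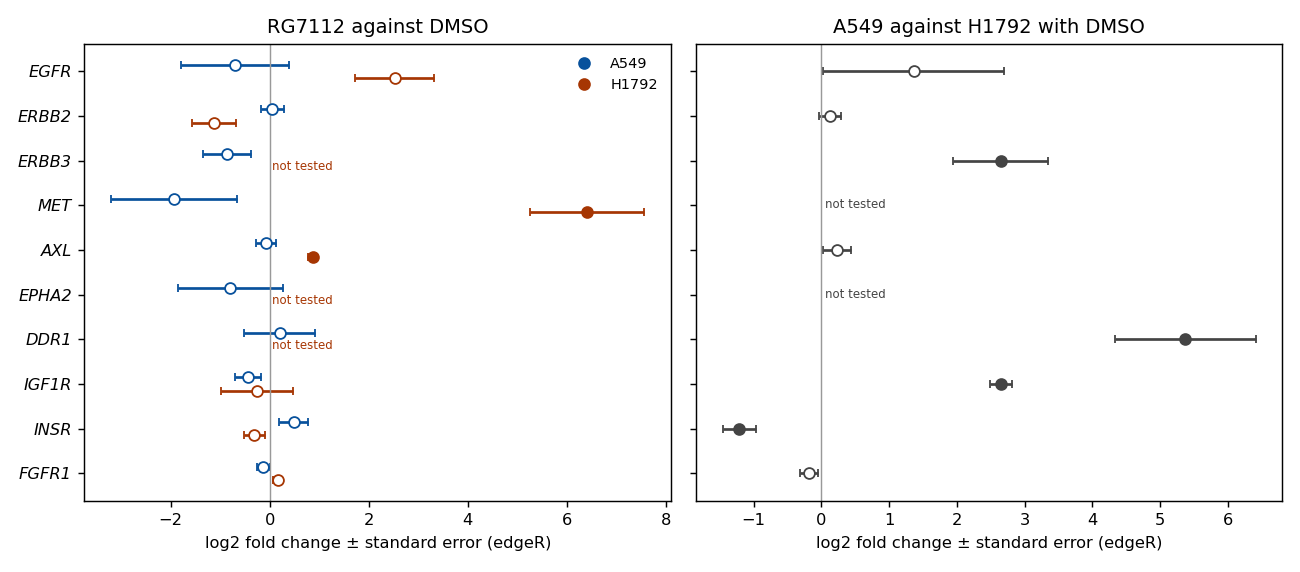
Log2 fold change of each receptor with its standard error from edgeR, for RG7112 against DMSO in A549 and H1792 (left) and for A549 against H1792 with DMSO (right). Filled points have an adjusted p under 0.05, and receptors that did not pass the filter on low counts are marked as not tested. MET and AXL are filled for H1792 on the left, and DDR1, IGF1R, ERBB3 and INSR are filled on the right.

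**Figure D4:**
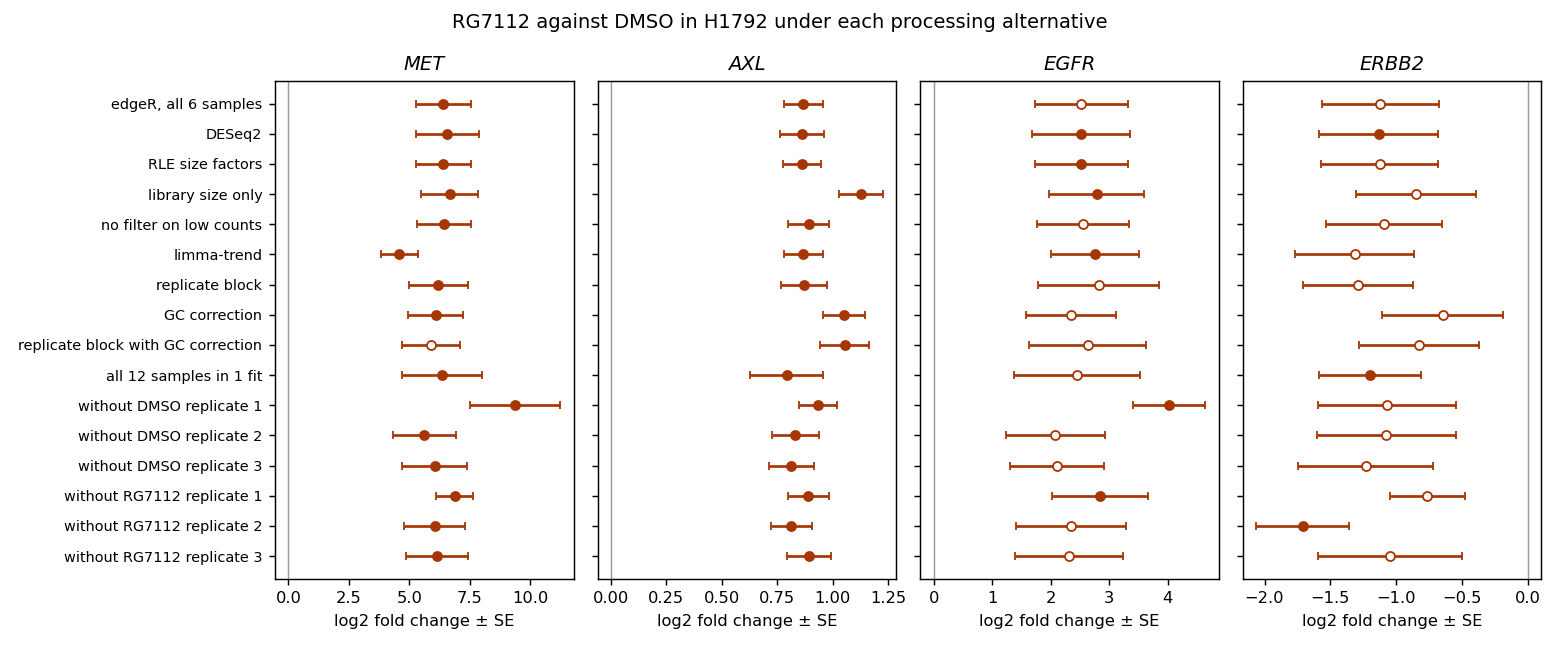
Log2 fold change with its standard error for MET, AXL, EGFR and ERBB2 with RG7112 in H1792 (x axes), under each processing alternative and with each sample left out in turn (rows). Filled points have an adjusted p under 0.05. AXL is filled in every row, MET in every row but the replicate block with GC correction, and EGFR and ERBB2 change between filled and open.

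The difference between the responses of the lines was tested as an interaction over all 12 samples. MET and AXL were called, 2 of 10 receptors, where 21.8% of all 11666 genes tested were called with 11.4% called in the same direction, lower in A549 than in H1792, and 10.4% in the other. For MET the difference, A549 minus H1792, was -8.26 (SE 2.06, edgeR, adjusted p = 0.0179), a fitted value that rests on DMSO samples near 0 counts in H1792. For AXL it was -0.87 (SE 0.23, edgeR, adjusted p = 0.0224). AXL lost its call when 1 of 4 samples was dropped, namely A549 DMSO replicate 1 or 2, H1792 DMSO replicate 3 or H1792 RG7112 replicate 2 (adjusted p from 0.0542 to 0.0560). MET lost it without H1792 DMSO replicate 2 (adjusted p = 0.0511).

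EPHA2 (-7.62, SE 2.56, edgeR, adjusted p = 0.0634), EGFR (-3.15, SE 1.49, adjusted p = 0.152), ERBB2 (1.25, SE 0.54, adjusted p = 0.120) and INSR (0.87, SE 0.35, adjusted p = 0.103) missed the threshold. ERBB3, DDR1, IGF1R and FGFR1 had adjusted p of 0.340 and above. With the third A549 sample of both treatments left out, 4 receptors were called, EGFR (-3.93, edgeR, adjusted p = 0.0296) and EPHA2 (-7.66, adjusted p = 0.0411) in addition to MET and AXL, and without the third A549 DMSO sample alone there were 5, with INSR added.

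The pathway genes around the receptors were counted in the same fits, without the GC correction. Ligands of these receptors were few. Of 25 measured ligand genes, 9 were tested in A549 and 7 in H1792. Of these, 1 was called in A549 and 0 in H1792, against 8.38% and 34.1% of all genes. NRG1, which binds ERBB3, was at 167 ± 21.2 CPM in A549 with DMSO and 8.01 ± 2.14 in H1792 (SD, n = 3), and was not called with the drug in either line (edgeR, adjusted p = 0.721 and 0.424). EFNA1, a ligand of EPHA2, was the 1 ligand that rose in A549, from 105 ± 12.7 to 213 ± 13.3 CPM (log2 fold change 1.02, SE 0.14, edgeR, adjusted p = 0.00750), and was at most 0.710 CPM in any H1792 library. FGF2, a ligand of FGFR1, was not called in either line.

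Feedback inhibitors rose more often than they fell in H1792: 10 of 15 tested genes rose and none fell, and their median log2 fold change was 0.65 against 0.01 over all genes (17.7% of all genes tested rose and 16.5% fell). ERRFI1, an inhibitor that binds EGFR-family kinases, was at 4.92, 2.53 and 0.435 CPM with DMSO and at 29.6, 56.1 and 45.5 CPM with RG7112. LRIG1, which promotes degradation of ERBB receptors, rose by 1.70 (SE 0.28, edgeR, adjusted p = 0.00671) on the log2 scale. DUSP6, an ERK phosphatase, rose in both lines, by 1.16 (SE 0.10, edgeR, adjusted p = 0.00272) in H1792 and 1.07 (SE 0.24, adjusted p = 0.0399) in A549, where it was the 1 called of 17 tested feedback inhibitors and 4.35% of all genes rose.

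Of the MAPK target genes, 6 of 8 rose and 1 fell in H1792, where 17.7% of all genes rose and 16.5% fell. CCND1, the cyclin of entry into the cell cycle, was at 1.41, 2.53 and 0.870 CPM with DMSO and at 54.1, 115 and 99.2 CPM with RG7112 (log2 fold change 5.74, SE 0.45, edgeR, adjusted p = 0.00272). ETV4, a transcription factor, fell by 0.37 (SE 0.06, edgeR, adjusted p = 0.00634) on the log2 scale. In A549, where 4.35% of all genes rose and 4.03% fell, 1 of 10 MAPK targets rose, DUSP6, and 2 fell, MYC (-1.32, edgeR, adjusted p = 0.00949) and ETV4 (-0.84, adjusted p = 0.0455). The lists overlap in DUSP6.

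Among adaptors, 5 of 13 rose and 2 fell in H1792 (17.7% and 16.5% over all genes), and 0 of 15 were called in A549 (8.38% over all genes). At an unadjusted p under 0.05 in edgeR, 4 of the 15 passed. CRKL, an SH2 and SH3 adaptor, had no count in any H1792 DMSO sample and 17, 99 and 55 counts with RG7112, at least 11.4-fold higher (edgeR, adjusted p = 0.00995). Its relative CRK fell, from 34.5, 21.9 and 37.4 CPM to 3.61, 2.84 and 8.82 CPM (log2 fold change -2.54, SE 0.48, edgeR, adjusted p = 0.00993). SOS1, a RAS exchange factor, rose by 2.15 (SE 0.47, edgeR, adjusted p = 0.0148) on the log2 scale. CRKL in A549 had 18, 63 and 0 counts with DMSO, with its 0 in the third sample, as for MET and EGFR.

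Sheddases and their regulators were called in both lines. In H1792, 4 of 10 rose and 2 fell, against 17.7% and 16.5% of all genes, led by ADAM10 (1.43, SE 0.18), ADAM12 (0.85, SE 0.14) and ADAM17 (1.10, SE 0.21), metalloproteases that cut ligands or receptors from the membrane, with edgeR adjusted p of 0.00362, 0.00597 and 0.0102. In A549, 2 of 10 rose, against 4.35% of all genes, RHBDF2 (1.32, SE 0.12, edgeR, adjusted p = 0.00179) and RHBDF1 (1.01, SE 0.15, adjusted p = 0.0102), the inactive rhomboid proteins that carry ADAM17 to the cell surface.

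The other receptor tyrosine kinases were mostly too low to test: 12 of 47 were tested in each line. In A549, 1 rose and 0 fell (4.35% and 4.03% over all genes), and in H1792, 1 rose and 2 fell (17.7% and 16.5% over all genes). EPHB2 rose in A549, from 198, 214 and 248 CPM to 417, 394 and 458 CPM (log2 fold change 0.94, SE 0.14, edgeR, adjusted p = 0.00813), and fell in H1792, from 307, 321 and 299 CPM to 249, 238 and 237 CPM (-0.28, SE 0.06, adjusted p = 0.0136). EPHB2 is a receptor for ephrin-B ligands, and its treatments did not overlap in either line. In H1792, EPHB6, a kinase-dead family member, also fell (-0.85, SE 0.16, edgeR, adjusted p = 0.0102), and PDGFRB rose, from 0, 4 and 2 counts to 16, 20 and 27 (adjusted p = 0.0220).

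Over the 12 samples, the gene most like each receptor was found by Pearson r of log2(CPM + 1). It was USP54 for EGFR (r = 0.945), GEMIN4 for MET (0.951), SMAP1 for AXL (0.968), SOCS4 for EPHA2 (0.941), PCIF1 for ERBB2 (0.921), LGR4 for ERBB3 (0.934), RNF182 for DDR1 (0.971), MYADM for IGF1R (0.971), TMEM134 for INSR (0.962) and NT5E for FGFR1 (0.959). These values describe points that share cell line, treatment and library, and each is the highest of many. After subtraction of the group means, r was 0.936 for USP54 and EGFR, 0.931 for GEMIN4 and MET and 0.720 for RNF182 and DDR1. The genes were picked on the same 12 samples, so these r are not an independent check.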

How the data were processed

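Poly-A RNA of 12 samples was sequenced from both ends; the labels and the paper's methods give different read lengths. Per the paper's methods and the submitters' processing notes, the authors estimated transcript abundances with kallisto 0.45.0 on GRCh38 and added them up to genes; the deposited values are estimated counts, whole numbers without normalization between samples, and no further rounding was needed. All columns were used, matched to the labels on line, treatment and replicate. Symbols, positions, lengths and GC content came from GENCODE v29 (18011 of 20595 identifiers matched), and promoters from RefSeq on GRCh38.p14, with an entry used for 8 receptors.

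Tests were run in R 4.3.3 with edgeR 4.0.16, DESeq2 1.42.0 and limma 3.58.1. In the samples of each fit, filterByExpr (at least 10 counts, total of 15) chose the genes, which were normalized by TMM and tested with edgeR's robust quasi-likelihood test; p-values were adjusted over all genes tested (Benjamini-Hochberg), and called means an adjusted p under 0.05. DEGs also had an absolute log2 fold change over 1. The biological coefficient of variation was 0.345 in the A549 fit, 0.270 in H1792, 0.303 at baseline and 0.330 in the interaction. Errors are SDs over 3 replicates or standard errors of the fit. A group with 0 counts in every library gives only a lower bound of the fold, against 3 counts per library averaged over the group. With a few counts, the ratio of summed counts has an exact Clopper-Pearson interval. Both cover counting error only.

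The receptors and gene lists were chosen with earlier results of these data known. All 10 receptors were named; of each list, at most 3 called genes with the smallest p per line were named, with the ligands of highest CPM, the gene of highest correlation per receptor, and MDM2 and CDKN1A. A gene that the rule also names is not reported here. Other settings were DESeq2, limma-trend (prior count 2), RLE size factors or library size in place of TMM, no low-count filter, a replicate block, a GC correction (loess, span 0.5), both together, all 12 samples in 1 fit, other thresholds and leaving out each sample. After the data were seen, leaving out the third A549 sample of both treatments was added. The fits were also run on simulated data with 200 changed genes. The simulated spread between replicates was smaller than in these data, so that run checks the code only and not the error rates here. List genes without a row in the table were not analysed here.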

Additional observations from a re-analysis of the deposited data

Results flagged for a closer look

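MET and AXL differed between the cell lines in their response to RG7112 by the interaction test. For MET the difference was -8.26 (A549 minus H1792, log2, edgeR, adjusted p = 0.0179), with 0 to 2 counts in the H1792 DMSO samples. For AXL it was -0.87 (adjusted p = 0.0224), with 255 to 301 CPM in H1792 with DMSO and 459 to 514 CPM with RG7112, and ranges that overlapped in A549. MET kept its call in 11 of 12 fits with 1 sample left out, and AXL in 8 of 12. Over 10 other settings, MET kept its call in 7 and AXL in 8. Both lost it with the replicate block and at an adjusted p under 0.01, and MET also with the block and GC correction together.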

How the results depend on the processing

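The count of receptors called in H1792 was 2, and it was 4 with DESeq2, 4 with library size only and 1 with the replicate block and GC correction together, where MET had 5.88 and an adjusted p of 0.0507. In the interaction the count of 2 became 1 with the replicate block (MET adjusted p = 0.0571, AXL adjusted p = 0.0539, EPHA2 called with 0.0206), 0 at an adjusted p under 0.01 and 4 with the third A549 sample of both treatments left out; in A549 that alternative gave 1 in place of 0. With the block and GC correction together the interaction count stayed at 2, but EPHA2 (edgeR, adjusted p = 0.0190) was called in place of MET (adjusted p = 0.0818). The cause of these changes was not tested, except that stricter thresholds call fewer genes. With each sample left out in turn, the receptors called ranged from 0 to 1 in A549, 2 to 3 in H1792, 3 to 7 at baseline and 1 to 5 in the interaction.

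Over all genes, DEGs in A549 numbered 665, and 279 at an adjusted p under 0.01. In H1792 they numbered 1450, and 527 with the replicate block and GC correction, 722 at an adjusted p under 0.01 and 3384 with no fold change threshold. The interaction called 2539 genes, and 1666 with GC correction, 1537 with the block added and 848 at an adjusted p under 0.01. Leaving out single samples gave 310 to 526, 920 to 1642 and 1584 to 2978, and 3134 to 4041 at baseline. With library size only, DEGs that rose made up 86.1% of those in H1792 (70.3% with TMM) and 68.8% at baseline (58.1%), and higher calls in the interaction 23.0% (47.7%).

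Signs turned only for receptors that were not called. ERBB2 in A549 was at -0.0141 with library size only, -0.16 with GC correction and -0.18 with the block added; EGFR in A549 was at 0.41 with limma-trend; IGF1R in H1792 at 0.0285 and FGFR1 at baseline at 0.0394 with library size only. In the interaction DDR1 was at 0.17 with limma-trend and 0.10 with the replicate block, and IGF1R at 0.42, 0.17 and, with block and GC correction, 0.0603. With single samples left out, values in A549 ranged from -0.0510 to 0.24 for ERBB2, -0.27 to 0.0394 for AXL and -0.21 to 1.32 for DDR1, in H1792 from -0.77 to 0.26 for IGF1R, at baseline from -0.00607 to 0.20 for ERBB2, and in the interaction from -1.04 to 1.00 for DDR1 and -0.67 to 0.37 for IGF1R.

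Samples with the same number did not deviate together throughout (r of 0.163, 0.0750 and 0.317 in A549 and -0.0507, -0.0273 and -0.00152 in H1792), so the replicate block is only an alternative; in H1792 it kept MET (adjusted p = 0.0392) and AXL (adjusted p = 0.0306), and at baseline it lost ERBB3 (adjusted p = 0.0618). Depth limits MET, EGFR, EPHA2, ERBB3 and DDR1, which had under 10 counts in some samples.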
